A study of Mus musculus with 4 samples.

Results

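The sodium pump genes described are Atp1a4, Atp1b1, Atp1b2, Atp1b3, Fxyd6 and Fxyd7, taken by exact symbol from the count files, which held all 6 of them among 32532 gene names. Messenger RNA on tagged ribosomes was captured from the deep cerebellar nuclei of adult, untreated mice of 1 transgenic line, Slc17a6-TRAP JX883, which carries the fusion Slc17a6-EGFP/Rpl10a. In this method, translating ribosome affinity purification (TRAP), cells chosen by a driver gene make a ribosomal protein fused to EGFP, and anti-EGFP antibodies pull down its polysomes. The driver here is Slc17a6, a vesicular glutamate transporter gene of glutamatergic neurons. There is 1 group of 4 immunopurified libraries, each from 3 mice, with library numbers 1300, 1301, 1302 and 1476 for replicates 1 to 4. No input RNA, other line or treatment was analysed here, so the values are levels, ratios within a library and differences between libraries, not enrichment over the tissue. Every library shares the transgene, and the labels do not say whether the pools of mice were independent, so p-values concern only these libraries.

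The sodium pump, or Na,K-ATPase, spends ATP to move sodium out of the cell and potassium in, and so restores the gradients that action potentials and synaptic currents run down. A working pump joins a catalytic alpha subunit, which binds ATP and the ions, to a glycosylated beta subunit, which is needed for folding and delivery to the membrane. Small single-span FXYD proteins can bind the complex and tune its affinity for ions. In fast-firing neurons such as those of the cerebellar nuclei, the pump is a main consumer of energy. Alpha subunit genes other than Atp1a4 are not analysed here.

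Gene counts totalled 9621762 to 10988373 per library. The ribosomal RNA precursor name Rn45s took 4.99, 14.2, 13.6 and 4.92% of them in replicates 1 to 4. Levels are counts scaled to a library total of 1000000 over all names (CPM). A gene with no count may still be present at up to 0.273 to 0.312 CPM, depending on the library, which is what 3 counts amount to. This bound reflects counting error alone. Slc17a6 stood at 2143 ± 153 CPM (SD, n = 4), and all 7 markers of glutamatergic nuclear neurons reached 1 CPM in every library, as did 10 of 12 astrocyte and Bergmann glia markers. Among all 32532 names, 11213 did. TMM scaling, which sets libraries to a common level over most genes, shifted CPM by -0.15, 0.0068, 0.03 and 0.12 (log2) in replicates 1 to 4.

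Atp1b1, the common beta subunit of neurons, was the most abundant of the 6 genes. Its level was 3389 CPM in replicate 1, 4036 CPM in replicate 2, 4169.6 CPM in replicate 3 and 3487 CPM in replicate 4. The mean was 3770.3 ± 389.8 CPM (SD, n = 4), rank 7 by mean CPM of all 32532 names. Per exon length it was rank 4 of the 23155 names with a length. Replicates 2 and 3, the libraries with the larger share of Rn45s, were the higher ones. With Rn45s left out of the totals those 2 libraries stood at 4703 and 4828 CPM, and replicates 1 and 4 at 3567 and 3667 CPM. With TMM scaling replicate 1 was lowest at 3051 CPM, while replicates 2, 3 and 4 stood at 4055, 4251 and 3780.4 CPM. The part of Rn45s in this pattern was not tested.

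The spread of Atp1b1 between libraries was small in CPM. The SD of its log2 level was 0.15, below 94.8% of the 8845 genes with a mean of at least 10 CPM, whose median SD was 0.43. With TMM scaling the SD of Atp1b1 was wider, 525.6 CPM against 389.8 CPM, and no share of genes was computed on that scale. Counts of 32609 to 43515 give a counting error of 0.506%, against an observed coefficient of variation of 10.3%. The gene (ENSMUSG00000026576.12) lies on chromosome 1 from 164437109 to 164458355 on the minus strand of mm10, the build also known as GRCm38. Of its exon bases, 575 (18.7%) overlap exons of Nme7 on the opposite strand. Nme7 stood at 3.82 ± 0.691 CPM, and reads over shared bases cannot be assigned with certainty where the strand setting of the counting is unknown.

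Atp1b2 encodes a beta subunit known from both neurons and glia and first described as a glial adhesion molecule. Its level was 513, 522 and 449 CPM in replicates 1 to 3 and 933 CPM in replicate 4. Replicate 4 thus lay well above the other 3, which sat close together. The mean was 604 ± 222 CPM, and the SD of the log2 level, 0.47, was larger than that of 55.9% of genes. The gene (ENSMUSG00000041329.13) lies on chromosome 11 from 69599736 to 69605942 on the minus strand.

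Atp1b3, a beta subunit found in many tissues, was far lower. It stood at 38.5, 43.7, 30.9 and 18.3 CPM in replicates 1 to 4, with a mean of 32.8 ± 11.0 CPM. Replicate 4 was the lowest library here, the reverse of Atp1b2. The gene (ENSMUSG00000032412.8) lies on chromosome 9 from 96332655 to 96364442 on the minus strand. Atp1b4, the remaining beta gene by name, which in placental mammals is known as a muscle protein that no longer serves the pump, had no count in any library.

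To compare beta genes with each other, counts were divided by the length of all annotated exons of a gene and scaled to a sum of 1000000 per library. Atp1b1 then stood at 6490.2 ± 1062, Atp1b2 at 780.1 ± 290.4 and Atp1b3 at 72.3 ± 24.2. Atp1b1 made up 88.6, 90.0, 91.7 and 82.7% of the summed level per length of the 4 beta genes in replicates 1 to 4. Atp1b2 made up 10.1, 8.77, 7.44 and 16.7%, and Atp1b3 0.56 to 1.3%. Atp1b1 was thus the main beta message in every library, and replicate 4 held the smallest share of it and the largest share of Atp1b2.

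**Figure D1:**
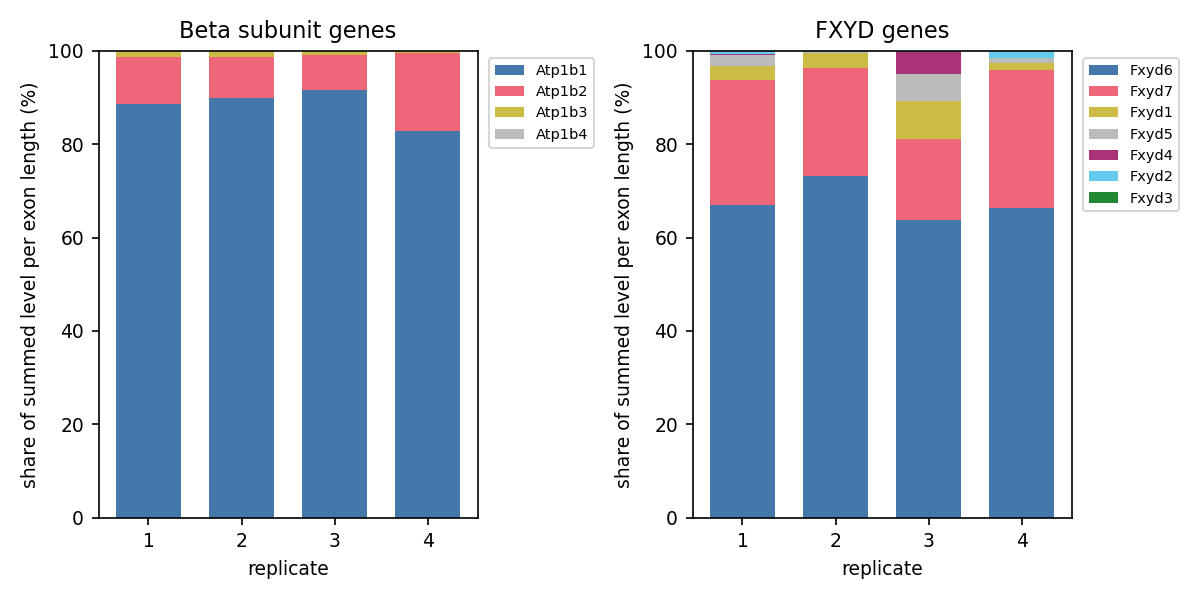
Share (%) of each gene in the summed level per exon length of the 4 beta subunit genes (left) and the 7 FXYD genes (right), 1 bar per replicate. Atp1b1 made up 82.7 to 91.7% of the beta level, and Fxyd6 63.7 to 73.2% of the FXYD level.

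The promoters of Atp1b1 and Atp1b3, the highest and the lowest beta gene with counts in every library, and that of Fxyd6, the leading FXYD gene, are shown so that the DNA at their starts can be read beside their levels. Each runs from 250 bases before to 50 bases after the start of the gene in RefSeq (GRCm38.p6), 5′ to 3′ on the strand of the gene, and covers chr1:164458306-164458605 (minus) for Atp1b1, chr9:96364382-96364681 (minus) for Atp1b3 and chr9:45369935-45370234 (plus) for Fxyd6. Capitals mark matches, on either strand and with overlap allowed, to the TATA box TATAAA and its variant form TATATA, to the CCAAT box and to the GC box GGGCGG.
Atp1b1: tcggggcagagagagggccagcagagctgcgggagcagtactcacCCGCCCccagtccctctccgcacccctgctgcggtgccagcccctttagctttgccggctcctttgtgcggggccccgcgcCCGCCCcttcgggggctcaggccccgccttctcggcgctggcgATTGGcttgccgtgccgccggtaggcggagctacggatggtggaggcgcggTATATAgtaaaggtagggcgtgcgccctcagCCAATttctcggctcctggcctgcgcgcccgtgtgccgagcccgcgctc
Atp1b3: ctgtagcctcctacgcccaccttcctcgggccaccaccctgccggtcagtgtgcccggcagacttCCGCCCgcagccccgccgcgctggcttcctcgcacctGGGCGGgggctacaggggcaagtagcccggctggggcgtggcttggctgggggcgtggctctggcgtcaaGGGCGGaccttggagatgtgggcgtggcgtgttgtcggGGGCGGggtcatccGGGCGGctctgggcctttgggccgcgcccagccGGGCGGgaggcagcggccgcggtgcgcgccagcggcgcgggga
Fxyd6: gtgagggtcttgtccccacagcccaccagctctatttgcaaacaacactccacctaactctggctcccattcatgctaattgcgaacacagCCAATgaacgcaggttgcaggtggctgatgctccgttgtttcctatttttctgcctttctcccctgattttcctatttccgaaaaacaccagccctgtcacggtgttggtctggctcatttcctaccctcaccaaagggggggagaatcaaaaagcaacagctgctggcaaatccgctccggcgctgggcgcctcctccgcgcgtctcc

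Atp1b1 had 1 match to TATATA, beginning 30 bases before the start, with 2 to the CCAAT box and 2 to the GC box. Of all 32851 promoters of the same length, 5.67% held TATATA, 13.6% held TATAAA, 37.4% held a CCAAT box and 35.7% held a GC box. Atp1b3 had 6 matches to the GC box and none to the other motifs, and Fxyd6 had 1 to the CCAAT box only. GC content was 71.0% for Atp1b1, 76.0% for Atp1b3 and 54.3% for Fxyd6, against a median of 52.7% over all promoters. These matches describe the letters in the window and do not show that a factor binds there. RefSeq promoters were matched for 4 of the 6 genes: Atp1a4, for which none of the motifs matched, Atp1b1, Atp1b3, which has a further start whose window holds none of them, and Fxyd6.

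Fxyd6, which encodes phosphohippolin, a pump regulator of the brain, was the leading FXYD gene. It stood at 138 CPM in replicate 1, 167 CPM in replicate 2, 91.9 CPM in replicate 3 and 102 CPM in replicate 4, with a mean of 125 ± 34.2 CPM. The highest library exceeded the lowest 1.81-fold. The SD of its log2 level was 0.39, larger than that of 43.2% of genes. The gene (ENSMUSG00000066705.7) lies on chromosome 9 from 45370185 to 45396159 on the plus strand.

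Fxyd7, a brain FXYD protein known to lower the affinity of the pump for potassium, had a low level. It stood at 9.25, 8.93, 4.22 and 7.64 CPM in replicates 1 to 4, on 44 to 92 counts, with a mean of 7.51 ± 2.30 CPM. Replicate 3 was the lowest library. The counting error of 11.4% is part of a coefficient of variation of 30.7%, so differences between libraries are less precise for this gene. Its annotated exons span only 693 bases (ENSMUSG00000036578.7, chromosome 7, 31042513 to 31051467, minus strand), and per exon length it stood at 56.6 ± 15.7 against 159 ± 43.3 for Fxyd6. Fxyd6 and Fxyd7 made up 67.6 ± 3.99% and 24.2 ± 5.21% of the summed level per length of the 7 FXYD genes. These shares depend on the length used, since Fxyd6 has 4107 exon bases in all but 2362 in its longest transcript. The SD covers the spread between libraries only.

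Atp1a4, the alpha subunit of sperm, was at the limit of detection. It had 2 counts in replicate 2, or 0.194 CPM, and none in replicates 1, 3 and 4. All 4 libraries therefore lay under the level of 3 counts, and no ratio to it is given. The gene (ENSMUSG00000007107.6) lies on chromosome 1 from 172223513 to 172258414 on the minus strand.

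**Figure D2:**
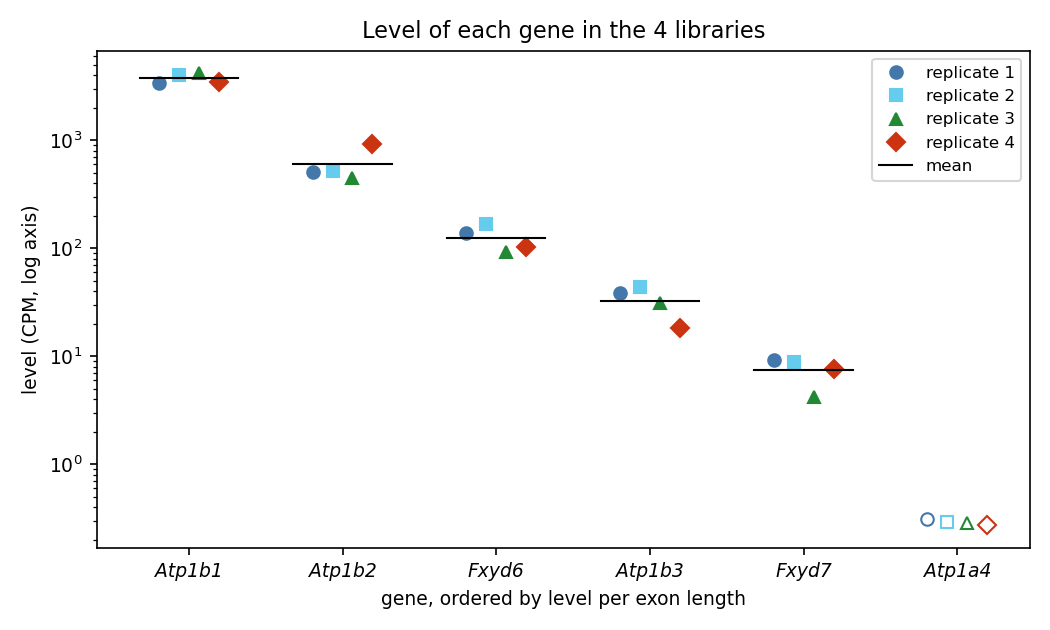
Level (CPM, log axis) of each gene in replicates 1 to 4, with the mean as a bar. Open symbols for Atp1a4 mark the level of 3 counts, since all 4 libraries had fewer. Atp1b2 in replicate 4 (933 CPM) stands above its other 3 libraries, and Atp1b3 in replicate 4 (18.3 CPM) below its own.

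The order per exon length was Atp1b1, Atp1b2, Fxyd6, Atp1b3, Fxyd7 and Atp1a4. Neighbours in it were compared by their log2 ratio within each library. Because the order came from the mean levels of these same libraries, it largely set the direction of each mean ratio in advance. Atp1b1 exceeded Atp1b2 by 3.10 ± 0.57 (SD, n = 4), a fold of 8.60, in 4 of 4 libraries (exact two-sided sign-flip permutation test, p = 0.13). The ratio was 3.13, 3.36 and 3.62 in replicates 1 to 3 and 2.31 in replicate 4. Atp1b2 exceeded Fxyd6 by 2.26 ± 0.68 in 4 of 4 libraries (exact p = 0.13), and Fxyd6 exceeded Atp1b3 by 1.17 ± 0.38 in 4 of 4 (exact p = 0.13). With 4 libraries 0.13, or 2 of 16 sign patterns, is the smallest p this test can give, so no pair can pass 0.05. These 3 ratios were larger than their spread.

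Atp1b3 and Fxyd7 did not differ beyond their spread per exon length, with a log2 ratio of 0.33 ± 0.66 that was positive in 3 of 4 libraries and -0.52 in replicate 4 (exact p = 0.5). The adjustment for length matters here, since Fxyd7 has the shortest exons of the family. In CPM without length the same ratio was 2.04. With the longest transcript as the length of each gene, the ratio Atp1b2/Fxyd6 was 1.59 in place of 2.26, and Fxyd6/Atp1b3 was 1.70. The direction of all 4 ratios held under these alternatives.

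Replicate 4 is the library whose number stands apart from the run of the other 3, and it was set against them with edgeR's quasi-likelihood test across 15083 genes. Of the 5 sodium pump genes with enough counts to be tested, 0 passed (Benjamini-Hochberg adjusted p under 0.05), against 0.0464% of all genes tested, or 7 genes. At an unadjusted p under 0.05 there was 1 of the 5, Atp1b2, and 2222 of all genes. The comparison sets 1 library against 3 with 2 residual degrees of freedom, so it concerns these libraries and no condition. The spread it uses for a gene is drawn partly from the other genes tested, not from that gene alone. The lone library is assumed to vary as much as the other 3 do, which cannot be checked, and a p-value holds only under that assumption.

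Atp1b2 had a log2 fold change of 1.07 (SE 0.26) in replicate 4, at 933 CPM against 494 ± 40.0 CPM (SD, n = 3) in the others (edgeR, unadjusted p = 0.00147, adjusted p = 0.168). DESeq2 on the same counts did call it (log2 1.09, adjusted p = 0.0298), in a test that called 2.85% of all genes. So did edgeR with no filter on low counts (adjusted p = 0.0236, 2.22% of genes called) and edgeR without replicate 1 (adjusted p = 0.0484, 0.857% of genes called). Over all 7 alternatives the log2 fold change ranged from 1.03 to 1.14 and the adjusted p from 0.0236 to 0.259. All of these fits share the single library of replicate 4, so the narrow range of the fold change says nothing about whether another library would show it.

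The other beta and FXYD genes did not pass in replicate 4. Atp1b1 had a log2 fold change of -0.0021 (SE 0.26, edgeR adjusted p = 0.998), and Fxyd6 had -0.21 (SE 0.39, adjusted p = 0.82). Atp1b3 had -0.89 (SE 0.50, edgeR adjusted p = 0.429), at 18.3 CPM against 37.7 ± 6.44 CPM in the other libraries. Fxyd7 had 0.20 (SE 0.82, adjusted p = 0.928), so a change of this gene could be seen only if it were large. The median over all genes tested was -0.16.

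**Figure D3:**
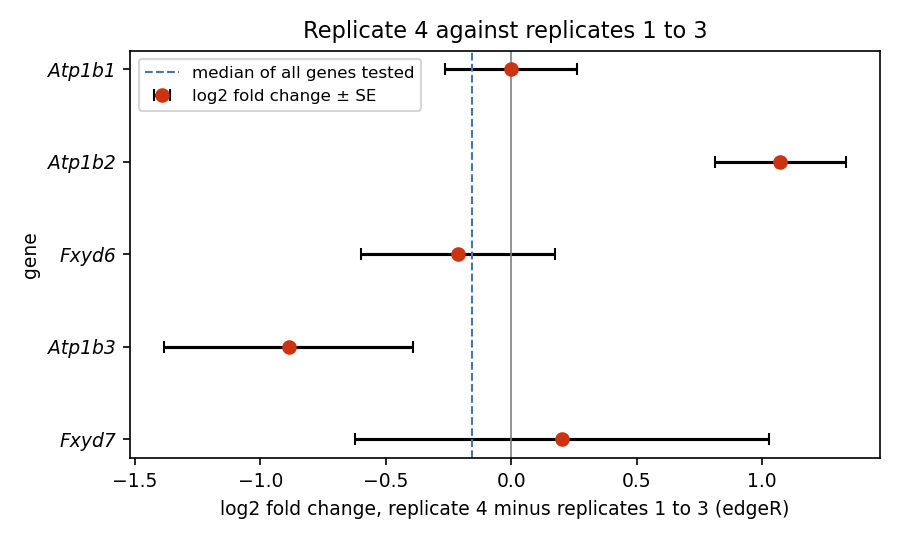
Log2 fold change ± SE of replicate 4 minus replicates 1 to 3 (edgeR) for the 5 genes tested. The dashed line is the median over all genes tested (-0.16). Atp1b2 stands at 1.07 and Atp1b3 at -0.89, and none of the 5 passed the threshold.

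Since Atp1b2 is also a gene of glia, marker levels of the cell types were read beside it. The 12 astrocyte and Bergmann glia markers summed to 414, 588, 881 and 536 CPM in replicates 1 to 4, so replicate 4, where Atp1b2 was highest, lay within the range of the others. Of these 12 genes, 0 were at their highest and 6 at their lowest in replicate 4, and their median log2 fold change there was -0.33. Oligodendrocyte markers summed to 476, 732, 1169.8 and 1005 CPM. Of those 8 genes, 3 were at their highest and 0 at their lowest in replicate 4, with a median log2 fold change of 0.36. The 10 pan-neuronal genes summed to 31359 CPM in replicate 4 against 23303 to 25320 CPM in the others, but 24379 CPM of that came from Snap25 alone. As single genes, 4 of the 10 were at their highest and 4 at their lowest in replicate 4, with a median log2 fold change of 0.05. The 7 markers of glutamatergic nuclear neurons summed to 3004 CPM in replicate 4 against 2466 to 2952 CPM in the others. Of the 3004 CPM, 2309 CPM came from Slc17a6 alone. Without Slc17a6 the sum was 696 CPM in replicate 4, against 715, 483 and 452 CPM in replicates 1 to 3. Among the 7 genes, 4 were at their highest and 1 at its lowest in replicate 4, with a median log2 fold change of 0.70. The sums of Purkinje cell markers (1158 CPM) and of inhibitory neuron markers (72.3 CPM) were lowest in replicate 4. Of the 6 Purkinje cell genes, 4 were at their lowest and 0 at their highest there, and of the 4 inhibitory neuron genes, 4 were at their lowest. The test of replicate 4 called so few of all genes that its outcome for the astrocyte, pan-neuronal and glutamatergic nuclear neuron markers says nothing about them. The part of cell makeup in the level of Atp1b2 was not tested, and in such bulk libraries fewer cells of a type and less RNA per cell cannot be told apart.

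**Figure D4:**
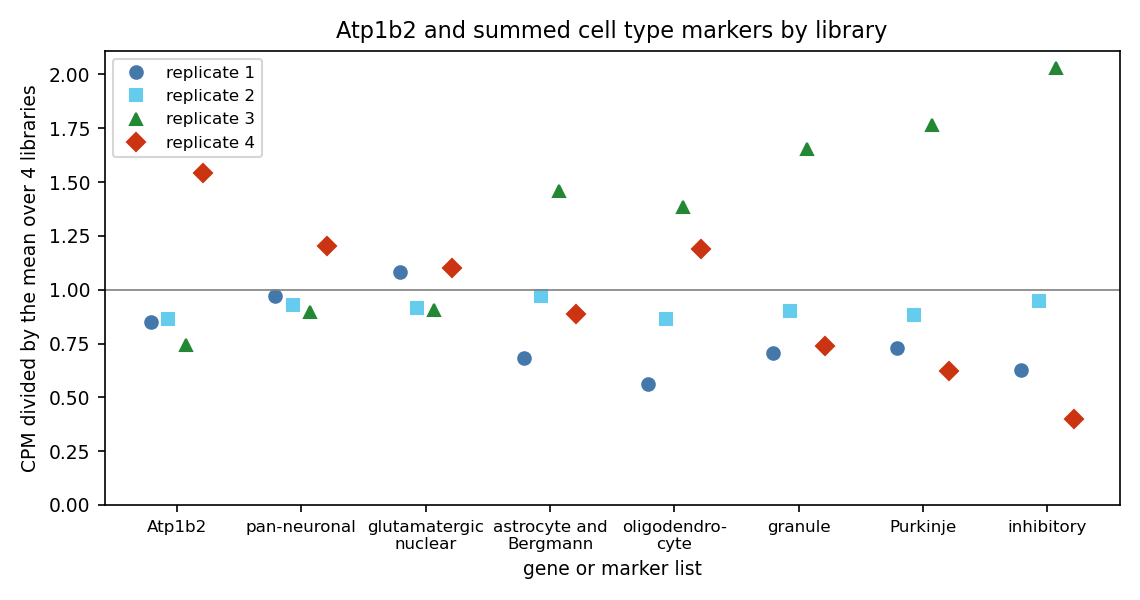
Level of Atp1b2 and summed level of 7 marker lists in each replicate, divided by the mean over the 4 libraries. Atp1b2 was highest in replicate 4, as was the pan-neuronal sum, most of which is Snap25, while the astrocyte and Bergmann glia markers were highest in replicate 3 (881 CPM).

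How alike the patterns over libraries were was measured as the root mean square difference of log2 levels, each centred on its own mean over the 4 libraries, among genes with a mean of at least 50 CPM. With 4 libraries many genes share a pattern, so the nearest genes are a description only. Nearest to Atp1b1 were Ttll7 at 0.016, Snapin at 0.020 and Vkorc1l1 at 0.026, and 118 of 3905 other genes lay within 0.10. Nearest to Atp1b2 were Stip1 at 0.021, Ranbp6 at 0.049 and Ncam1 at 0.049, with 32 genes within 0.10. Each of these was highest in replicate 4, Ncam1 at 592 CPM against 270 to 320 CPM elsewhere. Atp1b3 was nearest to Ss18l1 at 0.051, Actr3 at 0.051 and Mapk8ip1 at 0.067, with 7 genes within 0.10. Fxyd6 was nearest to Camk2n2 at 0.016, Ptprf at 0.056 and Tmem9 at 0.068, with 8 genes within 0.10. Among the pump genes themselves the difference ran from 0.32 for Atp1b3 and Fxyd6 to 0.84 for Atp1b2 and Atp1b3. The nearest genes were picked for their small difference, so these values cannot be weighed against theirs.

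Of all 32532 names, 11213 reached 1 CPM in every library. Of 13 relatives of the pump genes, 4 did so. These were Fxyd1, known as phospholemman and a pump regulator of glia and muscle, at 3.73 ± 2.07 CPM, and 3 genes of proteins that interact with the pump's beta subunits. Nkain1 stood at 100.4 ± 19.5 CPM, Nkain2 at 36.2 ± 13.2 CPM and Nkain3 at 9.02 ± 8.07 CPM. Nkain3 ranged from 1.35 CPM in replicate 1 to 20.2 CPM in replicate 4. Atp1b4, Fxyd3 and the proton pump genes Atp4b and Atp12a had no count in any library, as had 13828 of all names. Fxyd4 and Atp4a had 34 and 37 counts in replicate 3 and at most 3 in any other library. For the 9 relatives with enough counts, the median log2 fold change in the single library of replicate 4 was -1.28 (edgeR), against -0.16 over all genes. That median mixes genes of very different level. Fxyd4 (-6.65) and Atp4a (-3.57) had their counts mainly in replicate 3. The log2 fold change was above 0 for 4 of the 9, among them the more abundant Nkain1 (0.31), Nkain2 (0.73) and Nkain3 (2.04).

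Genes that use the sodium gradient built by the pump were also read. Of 18 exchangers and cotransporters, 17 reached 1 CPM in every library, against 11213 of all 32532 names. The median log2 fold change of the 18 in replicate 4 was 0.04. Slc24a2, an exchanger of sodium for calcium and potassium, stood at 898 ± 278 CPM, from 639 CPM in replicate 1 to 1272 CPM in replicate 4. Slc38a1, a sodium-coupled glutamine transporter, stood at 594 ± 47.8 CPM. Slc8a1, a sodium-calcium exchanger, stood at 211, 267, 221 and 583 CPM in replicates 1 to 4. Like Atp1b2, Slc8a1 had 1 high library, replicate 4 (log2 fold change 1.47, SE 0.29, edgeR adjusted p = 0.112).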

How the data were processed

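Each of the 4 libraries was deposited as raw counts per gene name, with 5 summary rows that were kept out of totals and tests. The submitters' processing notes list STAR 2.0.0e, HTSeq and mm10; no source used here gives the annotation or the strand setting. Reads with no feature made up 14.1 to 21.1% and reads aligned to several places 14.2 to 20.6% of all counted reads. Chi-square per degree of freedom between libraries was 32.9 to 119, so none was a copy of another.

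CPM was computed over all names. Exon lengths came from GENCODE M21 (GRCm38) by symbol, for 94.2% of the 11302 genes whose count was never under 10. Rn45s stayed out of levels per length. Ratios used log2(value + 0.5). Differential tests used edgeR 4.0.16 in R 4.3.3 (TMM, filterByExpr, robust quasi-likelihood fit, Benjamini-Hochberg adjustment), with DESeq2 1.42.0 as an alternative. On simulated counts the edgeR test recovered 65 of 100 genes changed 4-fold and 94 of 100 changed 16-fold, with 10 false calls. No smaller change was simulated, so how often the test would find one of the size seen for Atp1b2 is unknown. The changed genes were drawn only from those above a set expected count. Replicate 4 was simulated with the same spread as the other libraries, which is what the test assumes. A DESeq2 adjusted p was given for 13328 genes.

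The genes and lists were chosen with earlier results of these data known. Named are the 6 genes, the 3 genes nearest in pattern to each of those with a mean of at least 10 CPM, Slc17a6 and Rn45s, and from both lists of other transport genes the 3 highest by CPM and those with no count. Fxyd1, Fxyd4, Atp4a, Nme7 and Snap25 were named after their values were seen. Rpl10a stood at 164 ± 36.9 CPM. The remaining marker lists summed to 10.4 to 224 CPM (choroid plexus and ependyma), 4.16 to 14.3 (microglia, with C1qa at 0), 13.2 to 51.7 (endothelium and pericytes) and 545 to 1273 CPM (granule cells).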

Additional observations from a re-analysis of the deposited data

Results flagged for a closer look

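Of 41 values checked over the 4 libraries, 5 had 1 library that stood apart by Dixon's ratio, the gap to the nearest library over the whole range, past its 95% critical value. Chance marks about 1 in 20. Atp1b2 was far higher in replicate 4 (ratio 0.849), at 933 CPM against 449 to 522 CPM. Slc8a1 (ratio 0.850), Ranbp6 (0.925) and Ncam1 (0.844) were also far higher in replicate 4, and Ranbp6 and Ncam1 had been picked for a pattern like that of Atp1b2. Atp1a4 reached a ratio of 1 in replicate 2 on 2 counts, with none elsewhere, which is within the limit of 3 counts.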

How the results depend on the processing

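Without Rn45s in the totals the mean level of Atp1b1 was 4191 CPM in place of 3770.3 CPM, and the other 35 recomputed levels moved by less than 1 SD. For levels with 1 library left out this was fixed in advance, since leaving out 1 of 4 values cannot move a mean by 1 SD. All 32 recomputed ratios of neighbours kept their direction, although Atp1b3/Fxyd7 (0.33) was 0.083 without replicate 3 and 0.61 without replicate 4. The other 3 pairs had 1 sign in all 4 libraries, so leaving out a library could not turn their direction. The number of genes higher in replicate 4 was 6 by edgeR, 143 by DESeq2, 241 with no filter on low counts and 47 to 95 when 1 of replicates 1 to 3 was left out. The number lower was 1, and 237, 175 and 26 to 30 under those alternatives. Atp1b2 passed by DESeq2 (log2 1.09), with no filter (1.08) and without replicate 1, with log2 values of 1.03 to 1.14 over the fits that left out 1 library. The near-zero difference of Atp1b1 (-0.0021) turned sign by DESeq2 (0.011), with RLE size factors (0.011) and with no filter (0.0011), and ran from -0.14 to 0.085 when 1 library was left out. Fxyd6 ran from -0.40 to 0.028 (above 0 without replicate 2) and Fxyd7 from -0.066 to 0.39 (below 0 without replicate 3). The cause of these changes was not tested. Replicate 4 cannot be left out of its own comparison. No paired analysis was possible because the samples form 1 group. Depth limits Fxyd7 and Atp1a4 most, at 309 and 2 counts in all.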
